A study of Mus musculus with 24 samples.

Results

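The genes described here encode the subunits of potassium channels and of voltage-gated calcium channels, measured in the uterus of prepubertal mice that had lost Ctcf or kept it. Members were taken by symbol from a table of 22943 genes: potassium channel symbols made of Kcn, letters and a number, and calcium channel symbols beginning Cacna, Cacnb or Cacng. Kcnk9 and Kcnq1ot1 were left out by the rule. This gave 116 genes, of which 91 belong to potassium channels and 25 to calcium channels. The rule uses symbols and no measured value, but it was set with earlier results of these data known. Of the 116, 56 reached 1 RPKM in at least 4 libraries and could be tested, 42 of them potassium and 14 calcium channel genes.

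Bulk RNA sequencing was done on uteri of 21-day-old female mice of strain C57bl/6 after a subcutaneous injection of 0.5 mg progesterone in 0.05 ml sesame oil, or of the oil alone, given 6 hours before collection. Ctcf, floxed in both genotypes, encodes a protein that binds DNA and anchors chromatin loops. The knockouts (KO) also carried PgrCre, a Cre recombinase driven by the progesterone receptor gene, so deletion was limited to cells that express this gene, and their floxed littermates had no Cre. The 4 groups were KO after progesterone (KO P4, 4 libraries), floxed after progesterone (floxed P4, 4 libraries), KO after vehicle (KO vehicle, 8 libraries) and floxed after vehicle (floxed vehicle, 8 libraries). Sequencing was in 2 batches: a mixed batch with 4 libraries of each group, and a vehicle-only batch with the other 4 libraries of each vehicle group. Whether every library came from its own animal is not stated (KO vehicle libraries 11a and 11b share a number, as do floxed vehicle libraries 1a and 1b), so the p-values reflect only how much these samples varied.

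Potassium channels let potassium leave the cell and so hold or restore the resting potential, while voltage-gated calcium channels open on depolarisation and admit the calcium that starts contraction. In uterine smooth muscle, calcium entry through L-type channels drives each contraction, and calcium-activated, inwardly rectifying and voltage-gated potassium channels oppose it. Most of these channels are complexes of a pore with auxiliary subunits that set its gating and its delivery to the membrane, and many of the same subunits are also made by nerve, blood vessels and epithelium. Progesterone is known for keeping the uterus quiet.

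Values are batch-corrected RPKM (read counts divided by gene length and library depth), and RPKM is the only scale on which genes are compared with each other. The log2 fold changes are on the scale log2(RPKM + 0.5), with their SE, and a gene is called where the adjusted p of the limma fit over all 14284 tested genes is under 0.05. Estimated depth ran between 26200000 and 96000000 reads per library. Ctcf itself lay between 9.04 and 10.9 RPKM in KO P4 uteri and between 25.1 and 27.5 RPKM in floxed P4 uteri, and between 10.1 and 13.1 RPKM in KO vehicle uteri against 23.0 to 30.6 RPKM in floxed vehicle uteri. Smooth muscle markers were abundant in every library, with a sum over 10 genes of at least 1465 RPKM. In 3 libraries oviduct markers stood out, with sums over 4 genes of 227.4 RPKM in KO vehicle library 12, 421.7 RPKM in floxed P4 library 7 and 161.9 RPKM in floxed vehicle library 3. Squamous epithelium markers stood out in 2 others, with sums over 5 genes of 116.5 RPKM in KO vehicle library 9 and 44.9 RPKM in KO P4 library 8. These 5 libraries were kept, and the calls that ended without them are named. Fewer cells of a type and less RNA per cell cannot be told apart in such samples.

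Across all 24 libraries the highest mean levels belonged to members of several families. Kcnj8, the pore of the vascular ATP-sensitive channel, averaged 29.2 RPKM. Cacnb3, an intracellular beta subunit of calcium channels, averaged 27.6 RPKM. The tandem-pore-domain channel Kcnk1 averaged 24.4 RPKM, the gamma subunit Cacng7 24.1 RPKM, the alpha2delta subunit Cacna2d1 20.7 RPKM and the ether-a-go-go-related pore Kcnh2 20.1 RPKM. Among calcium channel pores the L-type pore Cacna1c was the highest at 11.3 RPKM, ahead of the T-type pore Cacna1g at 9.69 RPKM and the L-type pore Cacna1d at 8.05 RPKM. The beta subunit of the large-conductance calcium-activated channel (BK) that smooth muscle is known for, Kcnmb1, averaged 10.7 RPKM, and the BK pore Kcnma1 averaged 4.09 RPKM. Kcne4, a single-span subunit that dampens voltage-gated potassium current, averaged 15.1 RPKM. In all, 13 of the tested members averaged over 10 RPKM and 22 over 5 RPKM. Across the comparisons that follow 37 of the 56 tested members were called at least once and 19 were never called, Kcne4 among them. The share of all tested genes called at least once is not given here, so these counts have no background beside them. The 60 untested members stayed low: 55 of them were under 1 RPKM in every library. They include 12 of the 15 inward rectifiers, 8 of the 13 tandem-pore-domain channels and 23 of the 40 voltage-gated potassium pores. Modifier subunits that form no channel alone are counted among these 40. The highest single value among the untested was 1.49 RPKM for Kcnmb2, a BK beta subunit, in floxed P4 library 7, a library with oviduct markers. Kcnj11 and Kcnj13, inward rectifier pores, reached no more than 0.595 RPKM and 0.158 RPKM.

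CTCF binds DNA directly and the progesterone receptor binds a palindromic element, so the promoters of the members were searched for both. Promoter sequences are RefSeq's on GRCm38.p6, from 250 bases before to 50 after a gene's start, and 86 of the 116 members had at least 1. A short core of the CTCF motif (CC, 3 free bases, AG, 2 free bases, GGC) was searched on both strands, as was the progesterone response element (G, 1 free base, ACA, 3 free bases, TGT, 1 free base, C), which reads the same on both strands. The CTCF core stood in 3 of 42 promoters of members called in any comparison (7.14%), in 7 of 120 promoters of all members (5.83%) and in 8.61% of 32851 promoters of all genes. The 3 matches in called members are shown first, with the matched letters in capitals. They lie in promoters of Cacnb1 (a calcium channel beta subunit, chr11:98018323-98018622, minus strand), Kcnab1 (a cytoplasmic beta subunit of voltage-gated potassium channels, chr3:65108764-65109063, plus strand, matched on the other strand) and Kcnh2 (chr5:24329542-24329841, minus strand). The progesterone element stood in 0.475% of all promoters and in 1 member promoter, that of Kcna5, a voltage-gated pore of smooth muscle (chr6:126535506-126535805, minus strand), shown last. Promoters of Kcnmb4, Kcnc4, Cacna2d1, Cacna2d3, Kcnd3, Cacna1d and Kcnk1, whose values are given later, held neither set of letters in these windows. A match is a description of letters, not of binding.
Cacnb1 promoter: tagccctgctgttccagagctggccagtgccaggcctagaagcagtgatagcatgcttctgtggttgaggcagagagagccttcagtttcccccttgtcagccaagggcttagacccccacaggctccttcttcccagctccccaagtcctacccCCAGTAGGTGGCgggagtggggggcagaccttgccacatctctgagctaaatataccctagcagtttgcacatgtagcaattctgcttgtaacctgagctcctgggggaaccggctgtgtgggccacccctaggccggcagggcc
Kcnab1 promoter: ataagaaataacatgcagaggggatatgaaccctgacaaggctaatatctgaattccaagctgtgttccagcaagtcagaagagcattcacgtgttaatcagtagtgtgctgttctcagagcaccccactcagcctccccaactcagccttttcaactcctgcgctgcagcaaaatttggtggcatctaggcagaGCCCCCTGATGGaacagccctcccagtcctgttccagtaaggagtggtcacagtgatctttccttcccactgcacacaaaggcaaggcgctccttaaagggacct
Kcnh2 promoter: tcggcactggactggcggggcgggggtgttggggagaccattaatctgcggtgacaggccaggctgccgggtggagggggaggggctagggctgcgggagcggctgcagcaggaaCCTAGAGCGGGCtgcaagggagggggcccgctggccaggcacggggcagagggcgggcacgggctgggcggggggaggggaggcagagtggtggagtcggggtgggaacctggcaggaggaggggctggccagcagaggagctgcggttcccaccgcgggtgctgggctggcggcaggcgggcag
Kcna5 promoter: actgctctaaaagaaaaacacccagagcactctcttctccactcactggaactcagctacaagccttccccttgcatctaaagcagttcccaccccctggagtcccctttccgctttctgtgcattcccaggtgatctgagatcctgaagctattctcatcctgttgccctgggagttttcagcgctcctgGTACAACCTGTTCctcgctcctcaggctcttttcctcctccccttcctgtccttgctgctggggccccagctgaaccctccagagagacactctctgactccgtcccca

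The genotype comparison asked which channel genes differed when Ctcf was deleted. After vehicle, auxiliary subunits of calcium channels and the BK subunit Kcnmb4 were among the higher genes in KO uteri, and several voltage-gated potassium pores and the L-type pore Cacna1d were among the lower ones. Of the 56 tested members 12 were higher and 10 lower in KO uteri, or 39.3%, where 24.6% of all tested genes were called (13.1% higher and 11.5% lower). By kind, 6 potassium and 6 calcium channel genes were higher, and 9 potassium genes and 1 calcium channel gene were lower. The median log2 fold change of the members was 0.07, beside -0.01 for all tested genes. The groups did not overlap for 8 members (14.3%), beside 8.43% of all tested genes. After progesterone 8 members were higher and 4 lower in KO uteri, or 21.4%, beside 19.4% of all tested genes (12.3% higher and 7.06% lower), so the share was near the background. Quantile normalization gave 6 higher and 5 lower there. The groups did not overlap for 11 members after progesterone (19.6%), beside 21.5% of all tested genes. In both genotype comparisons 9 members were called in the same direction, and 1, Kcnab3, in opposite directions. Shares of all tested genes called in both comparisons are not given here, so these counts have no background beside them. Without the 5 libraries with oviduct or squamous markers, 17 of the 21 members still tested kept their vehicle call and 8 of 11 their progesterone call. The calls of Kcnab3, Kcnj8, Kcnk6 and Kcnmb1 after vehicle ended there (adjusted p between 0.0749 and 0.293), as did those of Cacnb3, Kcnh2 and Kcnip4 after progesterone (0.0589 to 0.246), and Kcnc4 could not be tested. A few members passed the 1 RPKM filter only through the side where they were higher, among them Kcnd2 through floxed libraries and Kcnc4 through floxed P4 libraries, so the counts are a description.

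**Figure D1:**
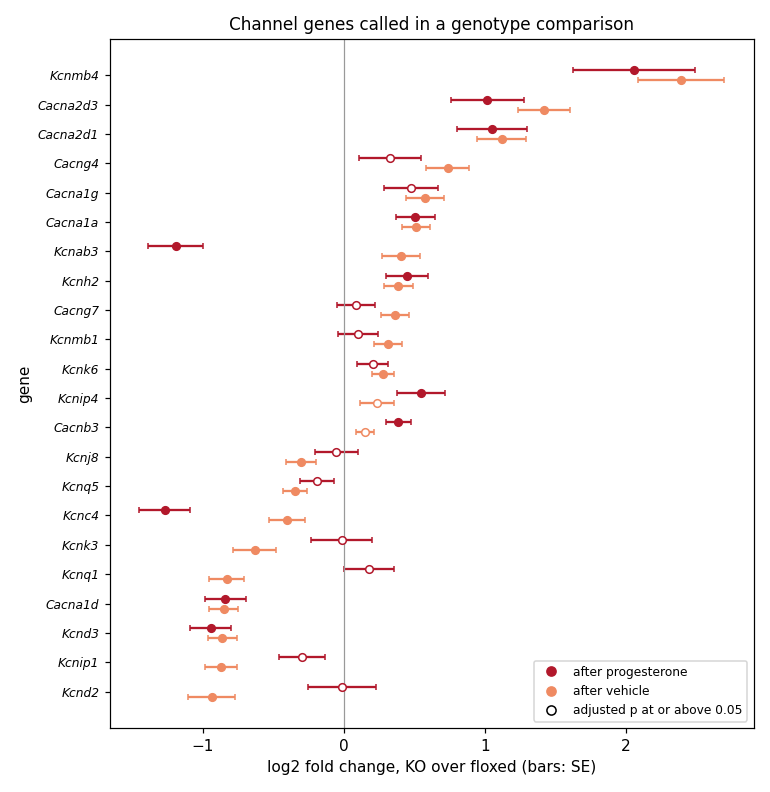
Log2 fold changes, KO over floxed, of 22 of the 24 channel genes called in at least 1 genotype comparison, with SE bars, after progesterone (dark red) and after vehicle (orange); open circles have an adjusted p at or above 0.05. Kcnmb4 lies farthest to the right under both treatments (2.06 and 2.39), and Kcnab3 has opposite signs (-1.19 after progesterone and 0.40 after vehicle).

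Several cell type markers differed between the genotypes as well. All 6 tested leukocyte markers of 8 listed were higher in KO uteri under both treatments. The list summed to 100.5 to 269 RPKM in KO P4 uteri against 63.3 to 108.6 RPKM in floxed P4 uteri, and to 141.4 to 279.1 RPKM in KO vehicle uteri against 61.4 to 108.5 RPKM in floxed vehicle uteri. Of 9 epithelial markers 6 were lower and 1 higher in KO vehicle uteri, with summed levels of 285.4 to 423.5 RPKM against 391.1 to 610.5 RPKM in floxed vehicle uteri. Of 9 nerve and Schwann cell markers 6 were tested and 1, Uchl1, was higher in KO uteri under both treatments (log2 fold change 2.36 after progesterone, adjusted p = 1.83e-09, and 1.94 after vehicle, adjusted p = 7.02e-11). That list summed to between 21.7 and 30.9 RPKM in KO vehicle uteri and between 8.61 and 16.5 RPKM in floxed vehicle uteri, while Tubb3 and Snap25 stayed under 0.6 RPKM in every library. The median log2 fold change of its 6 tested markers was only 0.12 after vehicle and 0.03 after progesterone, so the sums do not show a rise of the whole list. Of 8 stromal markers 0 were higher and 2 lower in KO uteri under both treatments, with overlapping sums. Of 8 endothelial markers 1 was higher after progesterone and 2 after vehicle, and 0 were lower. The endothelial list summed to 304.2 to 335.2 RPKM in KO P4 uteri against 251.2 to 299.3 RPKM in floxed P4 uteri, and to 286.3 to 416.6 RPKM in KO vehicle uteri against 240.0 to 305.8 RPKM in floxed vehicle uteri. Of 5 tested skeletal muscle markers 2 were lower in KO vehicle uteri, and of 6 pericyte markers 1 was higher and 1 lower under both treatments. None of the 10 smooth muscle markers was called after vehicle, and 1, Synpo2, was lower in KO uteri after progesterone (log2 fold change -0.49 ± 0.14, adjusted p = 0.0133). The part of these markers in the channel results was not tested.

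Among the calcium-activated potassium channels, Kcnmb4 had the highest fold change of any member over all libraries, though not after vehicle in the mixed batch alone. Kcnmb4 (chr10:116417861-116473878, minus strand, GRCm38) encodes a BK beta subunit best known from neurons. In the mixed batch KO vehicle libraries held 2.47, 3.76, 4.33 and 4.86 RPKM, against 1.44, 1.49, 1.71 and 1.40 RPKM in floxed vehicle libraries. In the vehicle-only batch KO libraries held 8.05, 5.16, 6.22 and 4.88 RPKM, while the 4 floxed libraries lay below 0, between -0.911 and -0.504 RPKM, and entered the log scale as 0. Subtracting a batch constant from a low gene can produce such values. After progesterone it held 10.3, 8.62, 6.43 and 7.14 RPKM in KO P4 uteri, against 1.34, 1.36, 2.38 and 1.26 RPKM in floxed P4 uteri. Every KO library was above every floxed library under both treatments. The pooled fold changes were 2.39 ± 0.31 after vehicle (adjusted p = 3.45e-06) and 2.06 ± 0.43 after progesterone (adjusted p = 0.00164). Within batches the vehicle difference was 2.35 RPKM in the mixed batch (log2 fold change 1.08) and 6.79 RPKM in the vehicle-only batch (3.69), so the size differed by batch and the direction did not. The mixed-batch fold change was below those of Cacna2d3 (1.58) and Cacna2d1 (1.17) in the same libraries. The annotation places antisense transcripts over this gene, and the strand setting of the counting is unknown.

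The pore and the muscle-type subunit behaved otherwise. Kcnma1, the BK pore, ran from 3.59 (median 4.93) to 7.43 RPKM in KO vehicle uteri and from 3.67 (median 4.35) to 4.90 RPKM in floxed vehicle uteri, ranges that overlap. Its difference was not called (log2 fold change 0.18 ± 0.13, adjusted p = 0.381). Kcnmb1 ran from 8.00 (median 12.5) to 14.5 RPKM in KO vehicle uteri and from 7.93 (median 9.71) to 11.3 RPKM in floxed vehicle uteri. These ranges overlap too, and the gene was called higher in KO uteri (log2 fold change 0.31 ± 0.10, adjusted p = 0.0246), a call that ended without KO vehicle library 9, KO vehicle library 5 or floxed vehicle library 2 (adjusted p between 0.0535 and 0.0589). Within batches its fold change was 0.50 in the mixed batch (adjusted p = 0.00494) and 0.12 in the vehicle-only batch (0.781). Kcnmb1 lies within the Kcnip1 gene on the other strand, so reads of the 2 genes may not have been kept apart. After progesterone neither Kcnma1 (-0.29 ± 0.19, adjusted p = 0.305) nor Kcnmb1 (0.10 ± 0.14, adjusted p = 0.673) differed by genotype beyond the threshold. Kcnn3, the small-conductance channel that the myometrium is known to use, ran from 5.20 (median 7.88) to 9.36 RPKM in KO vehicle uteri and from 4.64 (median 5.77) to 8.42 RPKM in floxed vehicle uteri; the ranges overlap and the difference missed the threshold (log2 fold change 0.37 ± 0.15, adjusted p = 0.0771). Of the BK gamma subunits, which are not members but help the same pore to open, Lrrc26 was lower in KO uteri. It ran from 0.219 (median 0.737) to 1.42 RPKM in KO vehicle uteri and from 3.61 (median 5.16) to 6.19 RPKM in floxed vehicle uteri, without overlap (log2 fold change -2.12 ± 0.22, adjusted p = 1.79e-07), and after progesterone held 0.631, 0.644, 0.342 and 1.65 RPKM in KO P4 uteri, against 1.29, 2.40, 5.54 and 2.71 RPKM in floxed P4 uteri (log2 fold change -1.36 ± 0.32, adjusted p = 0.00368).

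Of the channels that set resting potential, 1 of 3 tested inward rectifiers was called after vehicle, lower in KO uteri, and of 5 tested tandem-pore-domain channels 1 was higher and 1 lower. Beside them, 13.1% of all tested genes were higher and 11.5% lower. Kcnj8 ran from 22.3 (median 27.4) to 32.9 RPKM in KO vehicle uteri and from 24.5 (median 34.5) to 39.3 RPKM in floxed vehicle uteri, with overlap. It was called lower in KO vehicle uteri (log2 fold change -0.30 ± 0.11, adjusted p = 0.0412), a call that ended without any 1 of 10 vehicle libraries (adjusted p between 0.0546 and 0.0890), and the fold changes were -0.47 in the mixed batch (adjusted p = 0.0176) and -0.14 in the vehicle-only batch (0.746). Kcnj2, the strong inward rectifier, ran from 1.42 (median 1.84) to 2.34 RPKM in KO vehicle uteri and from 1.32 (median 1.73) to 2.14 RPKM in floxed vehicle uteri and was not called (0.09, adjusted p = 0.639). The acid-sensitive background channel Kcnk3 ran from 5.37 (median 9.79) to 12.4 RPKM in KO vehicle uteri and from 10.9 (median 14.2) to 17.8 RPKM in floxed vehicle uteri. Most KO libraries lay below the floxed range, and it was called lower in KO uteri (log2 fold change -0.63 ± 0.15, adjusted p = 0.00306); the fold changes were alike in both batches (-0.63 in the mixed batch, adjusted p = 0.0456, and -0.64 in the vehicle-only batch, adjusted p = 0.114). After progesterone Kcnk3 held 7.92, 9.92, 9.92 and 6.78 RPKM in KO P4 uteri, against 13.9, 7.26, 7.55 and 7.27 RPKM in floxed P4 uteri, and the genotypes did not differ beyond the threshold (-0.02, adjusted p = 0.964). Kcnk6, another weakly rectifying background channel, was higher in KO vehicle uteri by a log2 fold change of 0.27 ± 0.078 (adjusted p = 0.0126) over both batches and in neither batch alone (adjusted p of 0.105 and 0.289). The stretch-activated channel Kcnk2 lay between 0.402 and 2.09 RPKM and was not called (0.30 after vehicle, adjusted p = 0.239).

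Voltage-gated potassium pores, counted together with modifier subunits that form no channel alone, such as Kcng4 and Kcns3, went in both directions. Of 17 tested, 2 were higher and 6 lower in KO vehicle uteri, and 2 were higher and 2 lower after progesterone. The shares of all tested genes were 13.1% higher and 11.5% lower after vehicle, and 12.3% and 7.06% after progesterone. Kcnd3 (chr3:105452330-105674002, plus strand), a pore of the rapidly inactivating A-type current, ran from 4.24 (median 4.90) to 7.04 RPKM in KO vehicle uteri and from 8.28 (median 10.1) to 11.7 RPKM in floxed vehicle uteri. It held 4.87, 5.89, 6.33 and 4.92 RPKM in KO P4 uteri, against 10.4, 12.1, 12.2 and 9.54 RPKM in floxed P4 uteri. Each KO library was below each floxed library under both treatments (-0.86 ± 0.10 after vehicle, adjusted p = 9.59e-07, and -0.95 ± 0.14 after progesterone, adjusted p = 5.61e-05). Both calls held in every alternative that could test them, and the vehicle call held in each batch alone. The vehicle-only batch has no P4 libraries. Kcnd2, a pore of the same current, lay under 2 RPKM and ran from 0.136 (median 0.481) to 0.869 RPKM in KO vehicle uteri and from 0.738 (median 1.39) to 1.67 RPKM in floxed vehicle uteri. Its groups overlapped through floxed vehicle library 12, and it was called lower in KO uteri (log2 fold change -0.94 ± 0.17, adjusted p = 2.17e-04). The mean differences were -1.27 RPKM in the mixed batch and -0.453 RPKM in the vehicle-only batch. After progesterone it held 0.746, 0.958, 0.664 and 0.536 RPKM in KO P4 uteri, against 0.924, 1.36, 0.357 and 0.504 RPKM in floxed P4 uteri, fully overlapping (-0.01, adjusted p = 0.973).

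Kcnq1 (chr7:143106362-143427042, plus strand), the pore of a slow delayed rectifier, ran from 3.61 (median 5.11) to 6.81 RPKM in KO vehicle uteri and from 8.20 (median 8.93) to 13.1 RPKM in floxed vehicle uteri. No KO library reached the floxed range, and the call held in every alternative (log2 fold change -0.83 ± 0.13, adjusted p = 2.59e-05). After progesterone the genotypes overlapped, with 13.8, 13.6, 9.22 and 11.7 RPKM in KO P4 uteri, against 9.57, 7.90, 15.1 and 10.6 RPKM in floxed P4 uteri (0.18, adjusted p = 0.530). An antisense transcript crosses the gene, so these values may include its reads.

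Kcnh2, whose current shapes repolarisation in heart and uterus, ran from 20.0 (median 22.2) to 30.0 RPKM in KO vehicle uteri and from 15.4 (median 18.1) to 20.6 RPKM in floxed vehicle uteri, with a slight overlap. It was called higher in KO vehicle uteri (log2 fold change 0.38 ± 0.10, adjusted p = 0.00820), though in neither batch alone (adjusted p = 0.199 in the mixed and 0.0607 in the vehicle-only batch). After progesterone it held 22.4, 20.8, 18.3 and 24.9 RPKM in KO P4 uteri, against 20.4, 17.4, 12.5 and 13.4 RPKM in floxed P4 uteri, overlapping at KO P4 library 6 and floxed P4 library 1, and its call (log2 fold change 0.45 ± 0.15, adjusted p = 0.0354) ended without KO P4 library 4, 5 or 8 or floxed P4 library 7 or 9 (adjusted p between 0.0574 and 0.131). Kcnq5, a low-voltage-activated pore of smooth muscle, ran from 0.718 (median 0.790) to 1.25 RPKM in KO vehicle uteri and from 1.04 (median 1.21) to 1.56 RPKM in floxed vehicle uteri, with overlap through 1 KO library, and was called lower (log2 fold change -0.35 ± 0.085, adjusted p = 0.00374). It was not called in the vehicle-only batch alone (-0.31, adjusted p = 0.359). Kcna5, the gene with the progesterone element, ran from 2.95 (median 3.90) to 5.54 RPKM in KO vehicle uteri and from 2.21 (median 3.14) to 4.27 RPKM in floxed vehicle uteri and missed the threshold (log2 fold change 0.35 ± 0.13, adjusted p = 0.0562).

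Kcnc4, a fast-inactivating Shaw pore, was low and stood out by group. It held 0.201, 0.346, 0.211 and 0.262 RPKM in KO P4 uteri, against 1.75, 1.02, 1.24 and 1.34 RPKM in floxed P4 uteri. Each floxed P4 library exceeded each KO P4 library, with means of 0.255 ± 0.0661 RPKM in KO P4 and 1.34 ± 0.303 RPKM in floxed P4 uteri (SD, n = 4 each). The log2 fold change was -1.27 ± 0.18 (adjusted p = 2.47e-05). Kcnc4 passed the 1 RPKM filter only through the floxed P4 libraries, where it was high. The alternatives that could test it all kept these 4 libraries, so that its call held in them adds little. After vehicle it ran from 0.0552 (median 0.177) to 0.411 RPKM in KO vehicle uteri and from 0.192 (median 0.438) to 0.840 RPKM in floxed vehicle uteri, with overlap, and the smaller fold change (log2 fold change -0.41 ± 0.13, adjusted p = 0.0224) missed the threshold without KO vehicle library 9 (0.0510) or floxed vehicle library 4 (0.0536).

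Auxiliary subunits of the voltage-gated potassium channels gave 1 higher and 1 lower member of 9 tested under each treatment. All tested genes gave 13.1% higher and 11.5% lower after vehicle, and 12.3% and 7.06% after progesterone. Kcnip1, a calcium-binding partner of the A-type pores, ran from 4.08 (median 5.58) to 8.58 RPKM in KO vehicle uteri and from 8.47 (median 10.96) to 11.7 RPKM in floxed vehicle uteri. The ranges touch through 1 KO library, and it was called lower in KO uteri (log2 fold change -0.87 ± 0.12, adjusted p = 4.42e-06). In the vehicle-only batch alone its fold change was -0.75 (adjusted p = 0.0560), against -0.996 in the mixed batch (4.41e-05). Kcnab3, a cytoplasmic beta subunit, held 2.91, 1.92, 1.19 and 2.11 RPKM in KO P4 uteri, against 4.46, 6.28, 5.93 and 4.12 RPKM in floxed P4 uteri. No KO P4 library reached the floxed P4 range (log2 fold change -1.19 ± 0.19, adjusted p = 1.17e-04). After vehicle it was called in the other direction, running from 0.986 (median 1.45) to 1.84 RPKM in KO vehicle uteri and from 0.617 (median 1.01) to 1.30 RPKM in floxed vehicle uteri with overlap (log2 fold change 0.40 ± 0.14, adjusted p = 0.0338). That call ended without any 1 of 7 vehicle libraries (adjusted p between 0.0511 and 0.0694) and was absent in the mixed batch (0.14, adjusted p = 0.678). Kcnip4 was called higher in KO P4 uteri (log2 fold change 0.54 ± 0.17, adjusted p = 0.0277), but not without KO P4 library 4 or 8 or floxed P4 library 9 (adjusted p between 0.0741 and 0.101).

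Calcium channel pores gave 2 higher and 1 lower gene of 6 tested after vehicle, and 1 in each direction after progesterone. Among all tested genes 13.1% were higher and 11.5% lower after vehicle, and 12.3% and 7.06% after progesterone. Cacna1d (chr14:30039939-30491455, minus strand), the L-type pore that opens at more negative potentials and is known for pacemaking, ran from 4.31 (median 5.80) to 7.19 RPKM in KO vehicle uteri and from 9.85 (median 10.5) to 13.3 RPKM in floxed vehicle uteri. It held 5.69, 6.10, 5.28 and 3.86 RPKM in KO P4 uteri, against 12.4, 9.11, 9.54 and 8.02 RPKM in floxed P4 uteri. No KO library reached the floxed range under either treatment. The fold changes were -0.85 ± 0.10 after vehicle (adjusted p = 1.52e-06) and -0.84 ± 0.15 after progesterone (adjusted p = 2.54e-04), with -0.84 and -0.87 after vehicle in the mixed and vehicle-only batches. Chdh and Dcp1a overlap this gene on the other strand. The main L-type pore of smooth muscle, Cacna1c, ran from 9.24 (median 13.9) to 14.2 RPKM in KO vehicle uteri and from 11.2 (median 12.1) to 15.3 RPKM in floxed vehicle uteri. Its genotypes overlapped almost fully (log2 fold change 0.06 ± 0.098, adjusted p = 0.696; after progesterone 0.18, adjusted p = 0.396).

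The T-type pore Cacna1g ran from 10.6 (median 13.03) to 15.7 RPKM in KO vehicle uteri and from 6.86 (median 8.23) to 13.9 RPKM in floxed vehicle uteri, overlapping through floxed vehicle library 12, and was called higher in KO vehicle uteri (log2 fold change 0.57 ± 0.14, adjusted p = 0.00297). Its fold change was 0.77 in the mixed batch (adjusted p = 0.00387) and 0.38 in the vehicle-only batch (0.369). Cacna1h, the other T-type pore tested, ran from 2.05 (median 3.77) to 4.96 RPKM in KO vehicle uteri and from 2.60 (median 4.84) to 5.40 RPKM in floxed vehicle uteri and was not called (log2 fold change -0.25 ± 0.17, adjusted p = 0.333). Cacna1a, the P/Q-type pore of nerve terminals, ran from 2.87 (median 3.42) to 4.42 RPKM in KO vehicle uteri and from 1.64 (median 2.41) to 2.74 RPKM in floxed vehicle uteri, and held 3.14, 3.53, 2.78 and 2.58 RPKM in KO P4 uteri, against 2.03, 1.98, 1.95 and 1.88 RPKM in floxed P4 uteri. Its groups did not overlap under either treatment (0.51 ± 0.098 after vehicle, adjusted p = 4.25e-04, and 0.51 ± 0.14 after progesterone, adjusted p = 0.0123). The vehicle call was absent in the mixed batch alone (adjusted p = 0.0586), and the progesterone call ended without KO P4 library 5 (adjusted p = 0.0508).

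Of 8 tested auxiliary subunits of calcium channels 4 were higher and 0 lower in KO vehicle uteri, where 13.1% of all tested genes were higher and 11.5% lower. After progesterone 3 were higher and 0 lower, beside 12.3% and 7.06% of all tested genes. At an unadjusted p under 0.05 the limma fit put 30 of all 56 members past the threshold after vehicle and 18 after progesterone. The share of all tested genes at that p is not given here, so these counts have no background beside them. Cacna2d1 (chr5:15934691-16374511, plus strand), the alpha2delta subunit that carries the pore to the membrane and binds gabapentin, ran from 19.9 (median 31.4) to 45.1 RPKM in KO vehicle uteri and from 11.99 (median 14.0) to 15.8 RPKM in floxed vehicle uteri. Its lowest KO library was above its highest floxed library, and KO libraries spread widely. After progesterone it held 31.0, 25.4, 19.5 and 12.6 RPKM in KO P4 uteri, against 9.96, 10.97, 9.66 and 9.10 RPKM in floxed P4 uteri, again without overlap. The fold changes were 1.12 ± 0.17 (adjusted p = 4.15e-05) after vehicle, where the call held in every alternative, and 1.05 ± 0.25 (adjusted p = 0.00423) after progesterone, where it ended on the linear RPKM scale (0.0812). Cacna2d3 (chr14:28904943-29721864, minus strand), a paralogue best known from neurons, ran from 2.32 (median 3.02) to 3.85 RPKM in KO vehicle uteri and from 0.519 (median 0.909) to 1.33 RPKM in floxed vehicle uteri, without overlap (log2 fold change 1.42 ± 0.18, adjusted p = 3.32e-06). It held 1.97, 1.79, 1.25 and 2.57 RPKM in KO P4 uteri, against 0.471, 0.453, 1.96 and 0.295 RPKM in floxed P4 uteri. Here 1 floxed P4 library, number 7, lay within the KO range, and it was called higher (log2 fold change 1.02 ± 0.26, adjusted p = 0.00713).

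Cacnb3 ran from 29.7 (median 32.03) to 35.3 RPKM in KO vehicle uteri and from 23.6 (median 29.5) to 33.0 RPKM in floxed vehicle uteri, with overlap and no call (log2 fold change 0.15 ± 0.063, adjusted p = 0.0960). After progesterone it held 24.8, 23.99, 24.2 and 24.7 RPKM in KO P4 uteri, against 20.2, 20.6, 15.8 and 18.2 RPKM in floxed P4 uteri. All 4 KO P4 libraries were above the floxed ones (log2 fold change 0.39 ± 0.089, adjusted p = 0.00355). Cacnb2, the beta subunit of the cardiac channel, ran from 6.02 (median 7.95) to 9.01 RPKM in KO vehicle uteri and from 7.91 (median 8.66) to 10.3 RPKM in floxed vehicle uteri and was not called (log2 fold change -0.16 ± 0.082, adjusted p = 0.172). The gamma subunits Cacng4 (0.73 ± 0.15, adjusted p = 0.00106) and Cacng7 (0.36 ± 0.096, adjusted p = 0.00740), also known as partners of glutamate receptors, were higher in KO vehicle uteri. In single batches Cacng4 was not called in the vehicle-only batch (adjusted p = 0.0630) and Cacng7 in neither (0.125 in the mixed and 0.0741 in the vehicle-only batch).

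**Figure D2:**
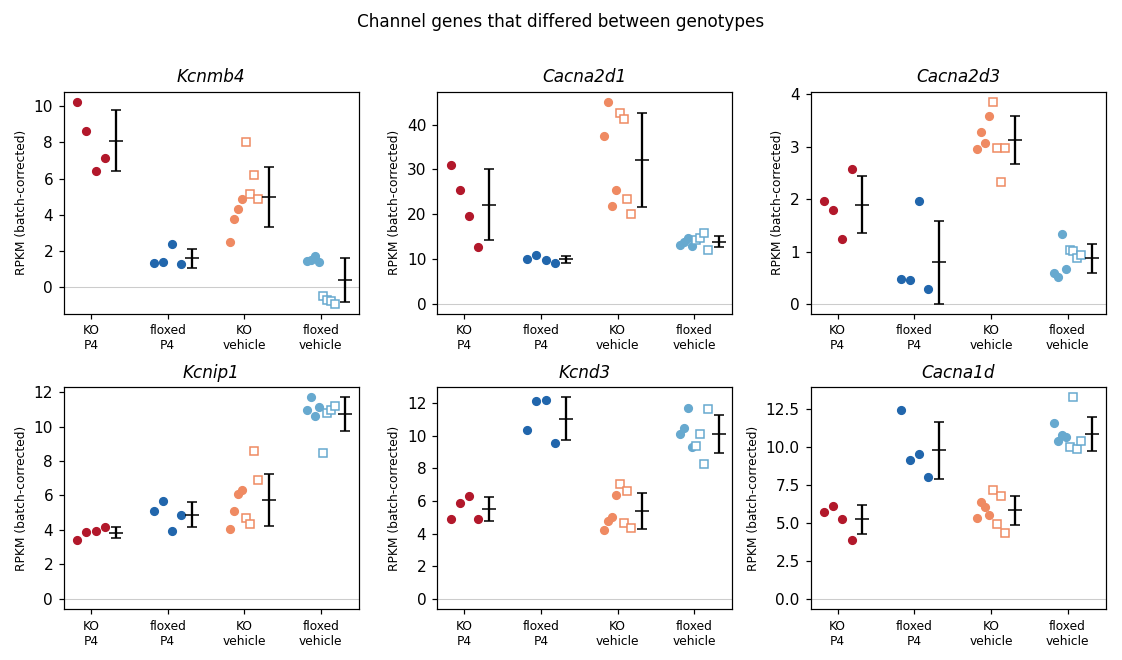
Batch-corrected RPKM in each library of 6 channel genes by group, with mean and SD bars; filled circles are the mixed batch and open squares the vehicle-only batch. Within each treatment KO libraries lie above floxed ones for Kcnmb4 and Cacna2d1 and below them for Kcnd3 and Cacna1d, Kcnip1 has the lower mean in KO uteri, and the 4 Kcnmb4 values below 0 are floxed vehicle libraries of the vehicle-only batch.

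Genes that act with these channels were taken from lists of non-members. Beside the counts below, 13.1% of all tested genes were higher and 11.5% lower in KO vehicle uteri. Among other channels of excitability 13 of 23 were tested, with 4 higher and 2 lower in KO vehicle uteri. Trpc4, a receptor-operated cation channel, ran from 4.10 (median 7.00) to 9.72 RPKM in KO vehicle uteri and from 2.08 (median 2.39) to 3.26 RPKM in floxed vehicle uteri, without overlap (log2 fold change 1.25 ± 0.17, adjusted p = 5.81e-06). The sodium leak channel Nalcn (-0.96, adjusted p = 6.71e-06) and the sodium channel pore Scn2a (-0.72, adjusted p = 1.89e-05) were lower. Of 14 contraction coupling genes 2 were higher and 4 lower. Ptgfr, the receptor for the contractile prostaglandin F, ran from 0.669 (median 2.37) to 4.79 RPKM in KO vehicle uteri and from 6.04 (median 9.90) to 12.9 RPKM in floxed vehicle uteri (log2 fold change -1.97 ± 0.22, adjusted p = 5.62e-07), and every KO library was below every floxed one. The oxytocin receptor gene Oxtr was higher (0.71, adjusted p = 0.0119), as was Gja1, the gap junction subunit of labour (0.36, adjusted p = 0.0215). Of 8 tested partners of calcium channels 1, Rrad, which holds calcium current down, was higher in KO uteri (0.65, adjusted p = 9.09e-04 after vehicle; 1.00, adjusted p = 6.23e-04 after progesterone). Store and release genes gave 3 higher and 3 lower of 16 tested, all with log2 fold changes between -0.54 and 0.37. Of 6 tested sodium pump subunits, Atp1b1 alone was called after vehicle (-0.75, adjusted p = 2.60e-04).

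The hormone comparison asked which channel genes differed 6 hours after progesterone. In KO uteri Kcnq1 and the beta subunit Kcnab1 were higher and the BK pore Kcnma1 lower. In floxed uteri the beta subunit Kcnab3 and the Shaw pore Kcnc4 were higher, and the L-type pore Cacna1c and the beta subunit Cacnb3 were lower in both genotypes. Of 56 members 4 were higher and 6 lower in KO uteri (17.9%), where 8.67% of all tested genes were called (4.00% higher and 4.66% lower). In floxed uteri 8 were higher and 12 lower (35.7%), where 23.0% of all tested genes were called (7.84% higher and 15.1% lower). Quantile normalization gave 9 higher and 7 lower in floxed uteri. The median log2 fold change of the members was -0.13 in KO uteri, beside -0.02 for all tested genes, and -0.18 in floxed uteri, beside -0.06. The groups did not overlap for 7 members in KO uteri (12.5%), beside 7.74% of all tested genes, and for 16 in floxed uteri (28.6%), beside 14.0%. None of the calcium channel genes was called higher in either genotype, and 3 were lower in KO and 4 in floxed uteri. In both genotypes 7 members were called in the same direction and 0 in opposite ones. These counts too stand without the shares of all tested genes called in both genotypes. Both responses set P4 libraries of the mixed batch against vehicle libraries of both batches. Within the mixed batch alone 8 of the 10 calls in KO uteri were kept, and 16 of the 20 in floxed uteri. Without the 5 libraries with oviduct or squamous markers 4 of the 10 calls in KO uteri were kept, and those of Cacna1c, Cacna1g, Kcnd1, Kcnip3, Kcnk1 and Kcnn3 ended (adjusted p between 0.0930 and 0.195). Of the 19 members still tested in floxed uteri 11 kept their call, and those of Cacna1g, Cacnb1, Kcnab1, Kcng4, Kcnip2, Kcnip4 and Kcnk3 were among the calls that ended (0.0541 to 0.171).

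**Figure D3:**
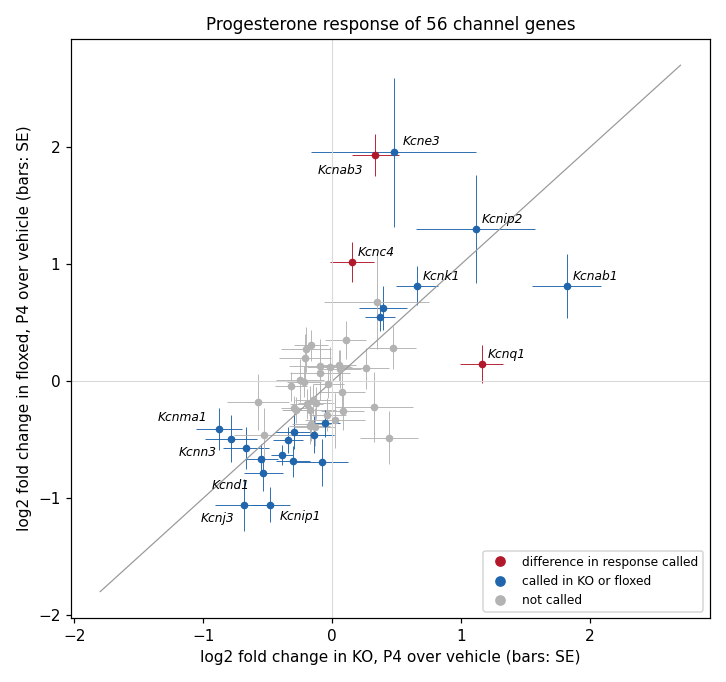
Log2 fold change, progesterone over vehicle, of the 56 tested channel genes in KO uteri (x axis) and floxed uteri (y axis), with SE bars and the line of equal response. Red points (Kcnab3, Kcnc4 and Kcnq1) are those whose difference in response was called, blue points were called in at least 1 genotype, and grey points in neither.

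Of the 8 calcium- and sodium-activated potassium channels tested, 2 were lower after progesterone in KO uteri and 0 were called in floxed uteri. Among all tested genes 4.00% were higher and 4.66% lower in KO uteri, and 7.84% and 15.1% in floxed uteri. Kcnma1 held 3.12, 1.99, 1.89 and 3.01 RPKM in KO P4 uteri and ran from 3.59 (median 4.93) to 7.43 RPKM in KO vehicle uteri, without overlap (log2 fold change -0.88 ± 0.18, adjusted p = 0.00276). Kcnma1 held 3.11, 4.75, 2.57 and 2.44 RPKM in floxed P4 uteri and ran from 3.67 (median 4.35) to 4.90 RPKM in floxed vehicle uteri, with overlap and no call (log2 fold change -0.41 ± 0.18, adjusted p = 0.0987). The difference between the responses was not called (-0.47 ± 0.23, adjusted p = 0.365). Kcnn3 held 5.34, 5.05, 5.68 and 2.04 RPKM in KO P4 uteri and ran from 5.20 (median 7.88) to 9.36 RPKM in KO vehicle uteri. KO P4 libraries 5 and 8 lay below the KO vehicle range and the other 2 at its low end. The call (log2 fold change -0.79 ± 0.20, adjusted p = 0.0154) ended without KO P4 library 8 (adjusted p = 0.0615). The gene held 3.77, 4.09, 3.63 and 4.53 RPKM in floxed P4 uteri, all below the vehicle range, which ran from 4.64 (median 5.77) to 8.42 RPKM in floxed vehicle uteri, and missed the threshold (log2 fold change -0.49 ± 0.20, adjusted p = 0.0794). Kcnmb1 did not move beyond the threshold in KO (-0.22, adjusted p = 0.356) or floxed uteri (-0.01, adjusted p = 0.984).

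The response of Kcnmb4 depended on how batches were joined. Over all libraries it was not called in KO uteri (log2 fold change 0.34 ± 0.41, adjusted p = 0.673), whereas in the mixed batch alone all 4 KO P4 libraries, at 6.43 RPKM and above, exceeded the 4 KO vehicle libraries, at 4.86 RPKM and below (1.00 ± 0.19, adjusted p = 0.00432). In floxed uteri it was not called in the mixed batch (0.02 ± 0.19, adjusted p = 0.944), and the difference in response there missed the threshold (0.97 ± 0.27, adjusted p = 0.0681). The BK gamma subunit Lrrc55, a non-member, was lower after progesterone in both genotypes. It held 3.21, 4.48, 4.05 and 2.47 RPKM in KO P4 uteri and ran from 4.95 (median 7.55) to 8.44 RPKM in KO vehicle uteri (log2 fold change -0.95 ± 0.17, adjusted p = 0.00108). Lrrc55 held 1.07, 1.60, 1.49 and 1.61 RPKM in floxed P4 uteri and ran from 5.83 (median 8.34) to 11.1 RPKM in floxed vehicle uteri, without overlap (log2 fold change -2.21 ± 0.17, adjusted p = 6.86e-09). The fall was smaller in KO uteri by a log2 difference of 1.25 ± 0.23 (adjusted p = 0.00231).

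Of the channels that set resting potential, Kcnk1, a widely expressed background channel, was higher after progesterone in both genotypes. It held 37.5, 37.2, 25.8 and 32.9 RPKM in KO P4 uteri and ran from 16.6 (median 21.3) to 26.8 RPKM in KO vehicle uteri. The ranges overlapped at KO P4 library 6, and the call (log2 fold change 0.66 ± 0.17, adjusted p = 0.0144) ended without KO P4 library 5 (adjusted p = 0.0542). Kcnk1 held 30.9, 28.0, 45.7 and 29.7 RPKM in floxed P4 uteri and ran from 14.8 (median 18.1) to 27.5 RPKM in floxed vehicle uteri, without overlap (log2 fold change 0.81 ± 0.17, adjusted p = 0.00106). Kcnk3 held 13.9, 7.26, 7.55 and 7.27 RPKM in floxed P4 uteri and ran from 10.9 (median 14.2) to 17.8 RPKM in floxed vehicle uteri. All but P4 library 1 lay below the vehicle range (log2 fold change -0.70 ± 0.20, adjusted p = 0.0145), and the call ended without floxed P4 library 2 (adjusted p = 0.0516) or 9 (0.0583). The G-protein-gated rectifier pore Kcnj3 held 0.193, 0.367, 0.272 and 0.370 RPKM in floxed P4 uteri and ran from 0.538 (median 1.07) to 1.75 RPKM in floxed vehicle uteri. Each P4 library lay below each vehicle library (log2 fold change -1.06 ± 0.22, adjusted p = 0.00130). It held 0.496, 0.491, 0.387 and 0.471 RPKM in KO P4 uteri and ran from 0.402 (median 1.14) to 1.86 RPKM in KO vehicle uteri, and missed the threshold there (-0.69, adjusted p = 0.0544), which it passed in the mixed batch alone (-0.73 ± 0.13, adjusted p = 0.00213). Kcnj3 passed the filter only through vehicle libraries. Kcnj8 (-0.04 in KO, -0.29 in floxed uteri), Kcnj2 (-0.18 and -0.38) and Kcnk2 (-0.10 and 0.07) were not called in either genotype.

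Kcnq1 responded in KO uteri. It held 13.8, 13.6, 9.22 and 11.7 RPKM in KO P4 uteri and ran from 3.61 (median 5.11) to 6.81 RPKM in KO vehicle uteri. Every P4 library was above every vehicle library, with means of 12.1 ± 2.13 RPKM (SD, n = 4) and 5.00 ± 0.949 RPKM (SD, n = 8), and the call held in every alternative (log2 fold change 1.16 ± 0.17, adjusted p = 1.38e-04). Kcnq1 held 9.57, 7.90, 15.1 and 10.6 RPKM in floxed P4 uteri and ran from 8.20 (median 8.93) to 13.1 RPKM in floxed vehicle uteri, with overlap (log2 fold change 0.15 ± 0.17, adjusted p = 0.578). The response was larger in KO uteri by a log2 difference of 1.01 ± 0.22 (adjusted p = 0.0108). In the mixed batch alone this difference missed the threshold (0.79 ± 0.23, adjusted p = 0.0783). The vehicle levels of the genotypes did not overlap, and the P4 levels did.

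Kcnc4 responded in floxed uteri. It held 0.201, 0.346, 0.211 and 0.262 RPKM in KO P4 uteri and ran from 0.0552 (median 0.177) to 0.411 RPKM in KO vehicle uteri, with overlap and no call (log2 fold change 0.15 ± 0.17, adjusted p = 0.659). Kcnc4 held 1.75, 1.02, 1.24 and 1.34 RPKM in floxed P4 uteri and ran from 0.192 (median 0.438) to 0.840 RPKM in floxed vehicle uteri. Every floxed P4 library exceeded every floxed vehicle library (log2 fold change 1.02 ± 0.17, adjusted p = 1.51e-04). The difference in response was -0.87 ± 0.22 (adjusted p = 0.0362). That call ended without any 1 of 10 libraries (adjusted p between 0.0502 and 0.0729), of which 4 were the KO P4 libraries, and in the mixed batch alone (-0.68 ± 0.26, adjusted p = 0.189). Kcnc4 was tested because of the floxed P4 libraries, the only ones at 1 RPKM or more, and it could not be tested without any 1 of them.

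Several other genes counted among the voltage-gated pores were lower after progesterone. Kcnd1, an A-type pore on the X chromosome (chrX:7822289-7838280, plus strand), held 1.41, 1.14, 0.869 and 1.31 RPKM in KO P4 uteri and ran from 1.47 (median 1.97) to 2.41 RPKM in KO vehicle uteri (log2 fold change -0.54 ± 0.15, adjusted p = 0.0263). That call ended without KO vehicle library 9 or KO P4 library 5 or 6 (adjusted p between 0.0645 and 0.0947). Kcnd1 held 0.625, 1.22, 0.733 and 0.779 RPKM in floxed P4 uteri and ran from 1.24 (median 1.86) to 2.27 RPKM in floxed vehicle uteri, without overlap (log2 fold change -0.79 ± 0.15, adjusted p = 5.43e-04). Kcns3, a modifier subunit that forms no channel alone, held 0.994, 0.556, 0.465 and 0.488 RPKM in floxed P4 uteri and ran from 0.975 (median 1.24) to 1.55 RPKM in floxed vehicle uteri. Only P4 library 1 reached into the vehicle range (log2 fold change -0.68 ± 0.13, adjusted p = 6.83e-04). Kcnq5 held 0.848, 0.815, 0.651 and 0.587 RPKM in floxed P4 uteri and ran from 1.04 (median 1.21) to 1.56 RPKM in floxed vehicle uteri, without overlap (log2 fold change -0.50 ± 0.11, adjusted p = 0.00246), a call that ended under quantile normalization (adjusted p = 0.0675). Kcnq5 passed the filter only through vehicle libraries. Kcng4, also a modifier, was higher (log2 fold change 0.62 ± 0.19, adjusted p = 0.0180), but not without floxed P4 library 1 (0.0700). Kcnh2, Kcnd3 and Kcna5 were not called in KO (-0.13, 0.05 and -0.02) or floxed uteri (-0.19, 0.13 and 0.12).

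Of the 9 tested auxiliary subunits of voltage-gated potassium channels 2 were higher and 0 lower after progesterone in KO uteri, and 5 were higher and 2 lower in floxed uteri. The shares of all tested genes were 4.00% higher and 4.66% lower in KO uteri, and 7.84% and 15.1% in floxed uteri. Kcnab3 (chr11:69326258-69333042, plus strand) held 2.91, 1.92, 1.19 and 2.11 RPKM in KO P4 uteri and ran from 0.986 (median 1.45) to 1.84 RPKM in KO vehicle uteri, ranges that overlap (log2 fold change 0.33 ± 0.18, adjusted p = 0.293). In floxed uteri the beta subunit held 4.46, 6.28, 5.93 and 4.12 RPKM in floxed P4 uteri and ran from 0.617 (median 1.01) to 1.30 RPKM in floxed vehicle uteri, with means of 5.20 ± 1.07 RPKM (SD, n = 4) and 0.970 ± 0.208 RPKM (SD, n = 8). Every floxed P4 library was far above every floxed vehicle library (log2 fold change 1.93 ± 0.18, adjusted p = 9.38e-08), and the call held in every alternative. The response was smaller in KO uteri, with a log2 difference of -1.60 ± 0.24 (adjusted p = 3.75e-04) and of -1.33 ± 0.27, adjusted p = 0.0153 in the mixed batch alone. The annotation has an antisense gene, Kcnab3os, over this locus.

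Kcnab1, the related beta subunit with a CTCF core in a promoter, was called higher in both genotypes. It held 10.9, 9.72, 2.89 and 5.39 RPKM in KO P4 uteri and ran from 0.741 (median 1.54) to 2.28 RPKM in KO vehicle uteri. Each P4 library was above each vehicle library, with a wide spread among them, and the call held in every alternative (log2 fold change 1.82 ± 0.27, adjusted p = 1.95e-04). Kcnab1 held 3.96, 3.78, 3.54 and 4.21 RPKM in floxed P4 uteri and ran from 1.28 (median 2.05) to 2.98 RPKM in floxed vehicle uteri, without overlap. That call (log2 fold change 0.81 ± 0.27, adjusted p = 0.0336) ended without floxed vehicle library 2 or any 1 of the 4 floxed P4 libraries (adjusted p between 0.0503 and 0.0858), in the mixed batch alone (0.59 ± 0.29, adjusted p = 0.144), on the linear RPKM scale (0.201) and without a filter on low values (0.0502). The difference in response was not called (1.00 ± 0.36, adjusted p = 0.157).

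The KChIP partners of the A-type pores split. Kcnip1 held 3.43, 3.87, 3.94 and 4.17 RPKM in KO P4 uteri and ran from 4.08 (median 5.58) to 8.58 RPKM in KO vehicle uteri, and just missed the threshold (log2 fold change -0.48 ± 0.15, adjusted p = 0.0510), which it passed in the mixed batch alone (-0.42 ± 0.12, adjusted p = 0.0431). It held 5.10, 5.68, 3.92 and 4.84 RPKM in floxed P4 uteri and ran from 8.47 (median 10.96) to 11.7 RPKM in floxed vehicle uteri, without overlap (log2 fold change -1.06 ± 0.15, adjusted p = 2.89e-05). The fall was smaller in KO uteri in the mixed batch alone (0.70 ± 0.17, adjusted p = 0.0414), a difference that was not called over all libraries (0.57 ± 0.20, adjusted p = 0.146). Kcnip3, also known as a calcium-regulated transcriptional repressor, held 14.8, 11.1, 8.53 and 14.3 RPKM in KO P4 uteri and ran from 8.32 (median 8.79) to 11.2 RPKM in KO vehicle uteri. The ranges overlap, and the call (log2 fold change 0.37 ± 0.12, adjusted p = 0.0469) ended without any 1 of 20 libraries (adjusted p between 0.0503 and 0.167). In floxed uteri the groups separated, and Kcnip3 held 16.6, 16.5, 13.8 and 13.7 RPKM in floxed P4 uteri and ran from 9.42 (median 10.1) to 11.5 RPKM in floxed vehicle uteri. Each floxed P4 library was above each floxed vehicle library, and the call held in every alternative (log2 fold change 0.55 ± 0.12, adjusted p = 0.00150). Kcnip2 was called higher (log2 fold change 1.30 ± 0.46, adjusted p = 0.0465) and Kcnip4 lower (log2 fold change -0.46 ± 0.16, adjusted p = 0.0408) in floxed uteri, and these calls ended without any 1 of 15 libraries for Kcnip2 (adjusted p up to 0.146) and of 9 for Kcnip4 (up to 0.150).

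Kcne3, a single-span subunit of epithelial potassium channels, was picked out after its values were seen, because it moved with oviduct markers. It held 5.61, 4.76, 28.2 and 5.58 RPKM in floxed P4 uteri and ran from 0.547 (median 2.46) to 11.3 RPKM in floxed vehicle uteri. P4 library 7 stood far above all others. The call (log2 fold change 1.95 ± 0.64, adjusted p = 0.0304) ended without that library (log2 fold change 1.38, adjusted p = 0.144), without floxed vehicle library 1b, 2 or 4 (adjusted p between 0.0689 and 0.0741) and in the mixed batch alone (0.0631). Without all 5 libraries with oviduct or squamous markers it stood, at a log2 fold change of 2.05 (adjusted p = 2.64e-04). In KO uteri Kcne3 held 2.26, 3.46, 4.44 and 5.19 RPKM in KO P4 uteri and ran from 0.669 (median 3.55) to 10.8 RPKM in KO vehicle uteri, and was not called (log2 fold change 0.48 ± 0.64, adjusted p = 0.720). The 3 libraries with the highest oviduct sums were also the 3 with the most Kcne3, namely 10.8 RPKM in KO vehicle library 12, 28.2 RPKM in floxed P4 library 7 and 11.3 RPKM in floxed vehicle library 3.

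**Figure D4:**
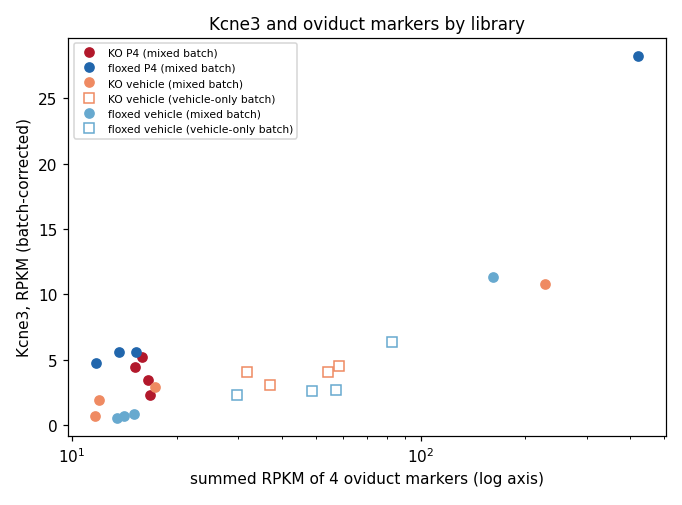
Kcne3 level (batch-corrected RPKM) against the summed RPKM of 4 oviduct markers (log axis) in each of 24 libraries, coloured by group, with open squares for the vehicle-only batch. Floxed P4 library 7 lies at the top right with 28.2 RPKM of Kcne3 and 421.7 RPKM of oviduct markers.

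Calcium channel pores were lower after progesterone in both genotypes where they were called. Cacna1c held 10.3, 9.76, 9.13 and 6.29 RPKM in KO P4 uteri and ran from 9.24 (median 13.9) to 14.2 RPKM in KO vehicle uteri, overlapping through KO vehicle library 13 (log2 fold change -0.55 ± 0.13, adjusted p = 0.00893). Cacna1c held 7.73, 9.29, 6.91 and 6.82 RPKM in floxed P4 uteri and ran from 11.2 (median 12.1) to 15.3 RPKM in floxed vehicle uteri. All P4 libraries lay below all vehicle libraries, and the call held in every alternative (log2 fold change -0.67 ± 0.13, adjusted p = 6.88e-04). The responses were close in size, with a difference of 0.12 ± 0.17 (adjusted p = 0.836). Dcp1b overlaps Cacna1c on the other strand.

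Cacna1g held 5.95, 8.45, 11.8 and 6.86 RPKM in KO P4 uteri and ran from 10.6 (median 13.03) to 15.7 RPKM in KO vehicle uteri. Most P4 libraries lay below the vehicle range; the call (log2 fold change -0.67 ± 0.18, adjusted p = 0.0207) ended without KO vehicle library 9 or KO P4 library 4 or 8 (adjusted p between 0.0515 and 0.0827). Cacna1g held 5.40, 4.65, 6.03 and 6.58 RPKM in floxed P4 uteri and ran from 6.86 (median 8.23) to 13.9 RPKM in floxed vehicle uteri, without overlap. That call (log2 fold change -0.57 ± 0.18, adjusted p = 0.0240) ended without floxed P4 library 1 or 2 (adjusted p of 0.0524 and 0.0837), under quantile normalization and on the linear RPKM scale. Cacna1d was not called in KO (-0.15, adjusted p = 0.567) or floxed uteri (-0.16, adjusted p = 0.427), nor was Cacna1h (0.02 and -0.34).

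Among calcium channel auxiliary subunits Cacnb3 changed in both genotypes. It held 24.8, 23.99, 24.2 and 24.7 RPKM in KO P4 uteri and ran from 29.7 (median 32.03) to 35.3 RPKM in KO vehicle uteri, without overlap (log2 fold change -0.39 ± 0.083, adjusted p = 0.00435). Cacnb3 held 20.2, 20.6, 15.8 and 18.2 RPKM in floxed P4 uteri and ran from 23.6 (median 29.5) to 33.0 RPKM in floxed vehicle uteri, again without overlap (log2 fold change -0.63 ± 0.083, adjusted p = 9.90e-06), and the call held in every alternative. The difference in response was not called (0.24 ± 0.11, adjusted p = 0.318). In floxed uteri Cacnb1, the beta subunit first known from skeletal muscle, was called lower (log2 fold change -0.36 ± 0.12, adjusted p = 0.0270), but not without floxed vehicle library 4 or floxed P4 library 2, 7 or 9 (adjusted p between 0.0528 and 0.105). Cacna2d1 was not called in KO (log2 fold change -0.53 ± 0.23, adjusted p = 0.171) or floxed uteri (log2 fold change -0.46 ± 0.23, adjusted p = 0.161), and Cacnb2 in neither (-0.29 and -0.25).

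**Figure D5:**
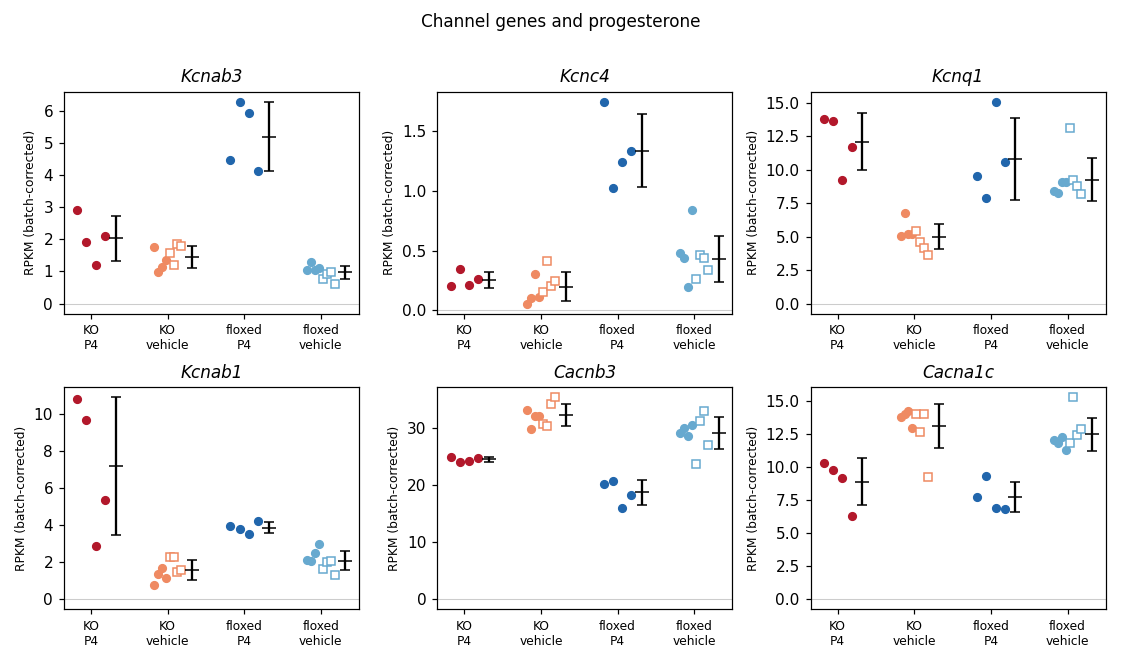
Batch-corrected RPKM in each library of 6 channel genes by group, with mean and SD bars; filled circles are the mixed batch and open squares the vehicle-only batch. Kcnab3 and Kcnc4 are highest in floxed P4 uteri, Kcnq1 is lowest in KO vehicle uteri, and Cacnb3 and Cacna1c have lower means in P4 than in vehicle uteri of each genotype.

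In all, 3 members had a response that differed between the genotypes, Kcnab3, Kcnq1 and Kcnc4, or 5.36% of the 56 tested, where 2.49% of all tested genes were called (1.46% higher and 1.03% lower). Kcnc4 enters this count through a filter that it passed only in floxed P4 libraries, so the share is a description. At an unadjusted p under 0.05 the same limma fit gave 10 members, a count without the share of all tested genes beside it. In the mixed batch alone, which holds all 4 groups, 3 members were called, beside 2.99% of the 14059 genes tested there. Kcnab3 was the 1 of these 3 members also called over all libraries. The others were Kcnip1 and Kcnd2. In that batch Kcnd2 had a log2 difference in response of 1.41 ± 0.29 (adjusted p = 0.0171), with log2 fold changes after progesterone of 0.68 ± 0.21 in KO uteri (adjusted p = 0.0517) and -0.72 ± 0.21 in floxed uteri (adjusted p = 0.0173). Over all libraries the Kcnd2 difference was 0.93 ± 0.29 (adjusted p = 0.105). Kcnip1, Kcnk3 and Kcnq5 were lower in KO vehicle uteri than in floxed vehicle uteri and lower in floxed P4 uteri than in the same floxed vehicle libraries, so these 2 sets of calls share their controls. For Kcnq1 and Cacna1g, the vehicle genotype call and the response in KO uteri share the KO vehicle libraries. For Kcnab3, Kcnc4, Cacnb3 and Kcnip4, the progesterone genotype call and the response in floxed uteri share the floxed P4 libraries. Such calls are not independent results.

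Genes that act with the channels were called as well. Beside their counts, 4.00% of all tested genes were higher and 4.66% lower in KO uteri, and 7.84% and 15.1% in floxed uteri. Of 6 tested sodium pump subunits, 2 rose in KO uteri and 3 in floxed uteri. Atp1b1, the pump's beta subunit, held 77.3, 59.4, 49.0 and 67.9 RPKM in KO P4 uteri and ran from 21.3 (median 27.5) to 31.3 RPKM in KO vehicle uteri (log2 fold change 1.17 ± 0.18, adjusted p = 3.13e-04). Atp1b1 held 123, 103, 162 and 139.9 RPKM in floxed P4 uteri and ran from 35.0 (median 41.2) to 79.8 RPKM in floxed vehicle uteri (log2 fold change 1.46 ± 0.18, adjusted p = 5.01e-06). No P4 library reached down into its vehicle range in either genotype. Abcc9, the sulfonylurea receptor that pairs with Kcnj8, was lower in floxed uteri (-0.49, adjusted p = 0.0358). Of 16 tested store and release genes 0 were higher and 2 lower in KO uteri, and 2 higher and 6 lower in floxed uteri. Slc8a1, the sodium-calcium exchanger, was lower in both (-0.41 in KO, adjusted p = 0.00728; -0.66 in floxed uteri, adjusted p = 1.89e-05). Ryr2, a calcium release channel, held 1.08, 0.614, 0.427 and 0.139 RPKM in KO P4 uteri and ran from 0.233 (median 0.413) to 0.560 RPKM in KO vehicle uteri (log2 fold change 0.17 ± 0.19, adjusted p = 0.663). Ryr2 held 0.823, 1.22, 1.73 and 1.58 RPKM in floxed P4 uteri and ran from 0.226 (median 0.298) to 0.362 RPKM in floxed vehicle uteri (log2 fold change 1.20 ± 0.19, adjusted p = 9.28e-05), and its response was smaller in KO uteri (-1.03 ± 0.25, adjusted p = 0.0260). The endothelin receptor gene Ednrb held 7.64, 4.25, 3.47 and 4.58 RPKM in KO P4 uteri and ran from 4.51 (median 4.90) to 6.11 RPKM in KO vehicle uteri (log2 fold change -0.08 ± 0.16, adjusted p = 0.825). Ednrb held 12.5, 13.9, 12.6 and 15.7 RPKM in floxed P4 uteri and ran from 3.30 (median 4.55) to 6.19 RPKM in floxed vehicle uteri, without overlap (log2 fold change 1.46 ± 0.16, adjusted p = 8.10e-07). Its response was smaller in KO uteri (-1.54 ± 0.21, adjusted p = 1.70e-04). Other channels of excitability were lower where called, 2 of 13 in KO and 4 of 13 in floxed uteri, among them the calcium-activated cation channel Trpm4 (-0.47 in KO, adjusted p = 0.0139; -0.94 in floxed uteri, adjusted p = 5.46e-06).

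Cell type markers also responded to progesterone. Of 9 epithelial markers 4 were higher in KO P4 than in KO vehicle uteri, with sums of 433.9 to 602.1 RPKM against 285.4 to 423.5 RPKM. In floxed uteri 1 was higher and 1 lower, with sums of 376.9 to 594.1 RPKM in floxed P4 and 391.1 to 610.5 RPKM in floxed vehicle uteri. Of 8 stromal markers 3 were lower and 1 higher in KO uteri, with sums of 1046 to 1710 RPKM in KO P4 and 1486 to 3031 RPKM in KO vehicle uteri, and 1 was lower and 1 higher in floxed uteri, with sums of 1237 to 1787 RPKM in floxed P4 and 1554 to 2000.0 RPKM in floxed vehicle uteri. Of 6 tested nerve and Schwann cell markers 1, Uchl1, was higher in KO uteri (0.59, adjusted p = 0.0219), while the median log2 fold change of the list was -0.13. Of 10 smooth muscle markers 0 were called in KO uteri and 1 in floxed uteri, and 0 of the leukocyte and endothelial markers were called in either genotype. The part of the epithelial and stromal markers in the channel results was not tested.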

How the data were processed

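RNA-seq of 24 uterine libraries was analysed from 1 gene-level table. The authors deposited batch-corrected RPKM for 22943 genes in 24 named columns. The submitters' processing notes name cutadapt 2.7 and TopHat, Partek and build mm10. They do not name the counting tool, annotation, strand setting or batch-correction tool. In the deposited RPKM values 6.66% lie below 0, and the vehicle means of both batches are equal (relative tolerance 1e-04) for 13688 of 13688 genes with a mean over 1, so a constant per gene had been added within a batch. The unit had been taken as plain RPKM when the test was chosen, and the test was kept. Values under 0 were set to 0 and a pseudocount of 0.5 was added. The log2 values of the 14284 genes with at least 1 RPKM in 4 libraries were fitted with limma 3.58.1 in R 4.3.3, as 4 groups plus batch with trend and robust empirical Bayes, 19 residual degrees of freedom, two-sided, with Benjamini-Hochberg adjustment over all tested genes and calls under 0.05. Depth was estimated from the steps of low values, from at least 115 genes a library, and was 44600000 to 96000000 reads in the mixed batch and 26200000 to 56500000 reads in the vehicle-only batch. The procedure was tested on simulated data. Gene positions are GENCODE's on GRCm38 (mm10), and promoters are RefSeq's. The members, gene lists, marker lists and tests were chosen with earlier results of these data known. Genes named are the called members with the lowest adjusted p in each comparison, up to 10, and a list of known uterine channel genes. Kcne3 and the other called members given with a fold change were added after their values were seen. At most 4 called genes of each list of partners are named. Several genes covered by the rule enter the counts without being reported by name here. Same-numbered samples were checked for pairing: the correlations of their deviations ran between -0.233 and 0.544, and the numbers were not taken as pairs. Alternatives were other pseudocounts, no filter and a 5 RPKM filter, quantile normalization, array weights, the linear scale, a replicate block, each batch alone, leaving out 5 libraries with oviduct or squamous markers, and leaving out each library.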

Additional observations from a re-analysis of the deposited data

Results flagged for a closer look

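Dixon's test was run on the 148 groups of values of the 37 members called in any comparison. In 14 of them a library lay far from the others of its group, and chance flags about 1 in 20 groups. Floxed P4 library 7 was the highest of its group for Kcnk1 (45.7 RPKM), Kcne3 (28.24 RPKM), Kcnmb4 (2.38 RPKM) and Cacna2d3 (1.965 RPKM), and floxed P4 library 1 for Kcnk3 (13.9 RPKM). In KO vehicle uteri library 12 was the highest for Kcne3 (10.8 RPKM) and library 9 for Kcnip3 (11.2 RPKM), and library 13 was the lowest for Cacna1c (9.24 RPKM) and Kcnmb1 (8.00 RPKM). In floxed vehicle uteri library 7 was the highest for Cacna1c (15.3 RPKM), library 12 for Kcnn3 (8.415 RPKM), library 4 for Kcnc4 (0.840 RPKM) and library 1a for Kcnq1 (13.1 RPKM), while library 1a was the lowest for Kcnip1 (8.475 RPKM). The response to progesterone differed between the genotypes by a tested log2 difference, KO minus floxed, of -1.60 for Kcnab3, 1.01 for Kcnq1 and -0.87 for Kcnc4.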

How the results depend on the processing

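Counts of called members are compared with 22 and 12 (KO against floxed after vehicle and after progesterone), 10 and 20 (progesterone in KO and in floxed uteri) and 3 (difference in response). The shares called of all tested genes were 24.6%, 19.4%, 8.67%, 23.0% and 2.49% in that order. Without a filter on low values, where 22943 genes were tested, 34 members were called between genotypes after vehicle and 5 for the difference in response. Beside them stood 19% and 1.97% of all genes. A filter of 5 RPKM, which leaves fewer members to test, gave 12 after vehicle, 6 after progesterone, 11 in floxed uteri and 1 for the difference. Of all genes past that filter 21.5%, 17.4%, 22.5% and 2.21% were called in these comparisons. Array weights gave 30 after progesterone, 30 in KO uteri, 35 in floxed uteri and 24 for the difference. The share called of all genes rose too, to 49.9%, 41.8%, 43.9% and 28.9%, and the cause was not tested. With the replicate number as a block (replicate block) the counts were 14, 5 and 2 for vehicle, progesterone and the KO response. Beside them stood 17%, 5.75% and 1.13% of all genes. For the difference limma called 0 members and 0.182% of all genes. There 9 members had an unadjusted p under 0.05, a count without the share of all genes beside it. The vehicle-only batch alone gave 9 after vehicle, beside 7.9% of all genes. Without the 5 libraries with oviduct or squamous markers 4 were called in KO uteri and 12 in floxed uteri, beside 2.71% and 14.3% of all genes. Leaving out each library gave 19 to 24, 9 to 13, 7 to 11, 14 to 22 and 2 to 4 calls. Of 67 results of single members 22 were never lost and none reversed. Members near 1 RPKM rest on few reads, and no counting interval is given because the table holds no counts.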
